A study of Mus musculus with 15 samples.

Results

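The genes described here are 39 genes of the interferon response and of antigen presentation by major histocompatibility complex class I (MHC I), taken by name, with 1 probe set per gene. They fall into 8 sensors and transcription factors, 2 feedback regulators, 20 antiviral effectors, 5 interferon-inducible GTPases and 4 genes of class I presentation. A probe set annotated to the gene alone was found for 37 of them, out of 18193 genes of the array with such a probe set, and the brightest one was taken. Of these, 33 had a mean signal above 100 over all arrays and were tested, among 11603 genes tested in all. Socs1, Oas3, Mx1 and Mx2 stayed under that limit, Isg15 shares its probe set with a second gene, and Ifi44 was not analysed here.

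Lung tissue of SP-C/c-raf transgenic mice and of non-transgenic littermates was measured on 15 Affymetrix arrays, 1 laser-microdissected sample per array. In the transgenic mice the surfactant protein C promoter drives the c-raf kinase in the lung epithelium, and the strain had been bred into the C57BL/6 background. The groups were 5 samples of dysplasia, 5 of transgenic but otherwise unaltered tissue (called transgenic here), both cut from the same dysplasia-bearing transgenic mice aged 5 to 7 months, and 5 of lung of non-transgenic littermates aged 7 to 10 months. The non-transgenic mice were thus the older ones, and age and transgene cannot be told apart in comparisons with them. Sex differed as well, since Xist and Y-linked signal were those of males on 4 of the 5 transgenic arrays and of females on 4 of the 5 non-transgenic arrays, while dysplasia had 3 male arrays, 1 female array and 1 with both signals. By the authors' methods each sample pooled the microdissected area of 1 animal. Whether the array with both signals holds tissue of 1 mouse only is not known. In such bulk tissue fewer cells of a type and less RNA per cell cannot be told apart.

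Type I and type III interferons are secreted when a cell senses viral or displaced nucleic acid. All interferons, interferon gamma included, act through cell surface receptors, JAK kinases and STAT and IRF transcription factors. The type I and type III interferons induce genes mainly through the interferon-stimulated response element, and interferon gamma mainly through the gamma-activated site. The induced proteins block steps of viral replication, and part of them load peptides onto MHC I so that T cells can inspect the cell. In the lung, epithelium, endothelium and alveolar macrophages all respond to interferons.

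Mean signal per array ran from 692 to 775, and 44.1% to 49.9% of the probe sets lay above a signal of 100. RNA integrity was read from actin, as its 5′ signal in percent of its 3′ signal, and the median over the arrays was 57.1% for dysplasia, 38.9% for transgenic and 31.0% for non-transgenic tissue. The labels or the sex-linked signal put 2 arrays in doubt. The array called transgenic 2 has a title that gives unaltered transgenic tissue and other entries that give tumor, and on dysplasia 4 the female transcript Xist and a Y-linked transcript were both bright. Counts without both arrays are given beside the main counts.

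Promoter windows from RefSeq (build GRCm38.p6, 250 bases before to 50 after the gene start) were found for 32 of the 39 genes. Both strands were searched. The letters GAAANNGAAA, a core shared by interferon-stimulated response elements, occurred in the windows of 19 of these 32 genes. Of all 27025 genes with a window, 3.99% had these letters. They were found for 10 of 17 effectors, all 4 GTPases with a window, 3 of 7 sensors and factors, Socs1, and 1 of 3 class I genes, B2m. The letters TTCNNNGAA, the core of the gamma-activated site, occurred for 8 of the 32 genes and for 9.55% of all genes with a window. The 9 stretches below show both motifs in capitals, first for genes whose signal was lower in dysplasia than in transgenic tissue, then for 3 genes that carry the same letters and had no such call. They lie at chr19:34640765-34640833 on the plus strand for Ifit1, chr19:34583353-34583436 (plus) for Ifit3, chr12:26456543-26456592 (minus) for Rsad2, chr3:142559979-142560034 (plus) for Gbp3, chr8:71537567-71537622 (minus) for Bst2, chr11:53769904-53769952 (plus) for Irf1, chr2:122147528-122147577 (plus) for B2m, chr11:48871421-48871470 (minus) for Irgm1 and chr5:120907526-120907565 (minus) for Oas1a. All stand before the gene start and read 5′ to 3′ on the strand of the gene, where the first motif appears either as written or as its reverse complement. Irf1 is shown for TTCNNNGAA, and in the stretch of Bst2 the letters of this motif run into those of the first one.
Ifit1: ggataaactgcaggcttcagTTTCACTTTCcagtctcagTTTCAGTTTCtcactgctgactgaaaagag
Ifit3: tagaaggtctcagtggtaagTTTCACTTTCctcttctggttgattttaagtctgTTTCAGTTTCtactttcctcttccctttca
Rsad2: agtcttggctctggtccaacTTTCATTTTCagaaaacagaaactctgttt
Gbp3: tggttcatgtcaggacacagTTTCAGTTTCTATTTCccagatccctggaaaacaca
Bst2: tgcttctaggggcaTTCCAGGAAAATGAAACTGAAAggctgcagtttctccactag
Irf1: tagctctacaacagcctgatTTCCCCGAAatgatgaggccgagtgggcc
B2m: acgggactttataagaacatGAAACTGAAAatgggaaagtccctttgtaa
Irgm1: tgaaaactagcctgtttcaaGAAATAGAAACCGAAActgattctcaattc
Oas1a: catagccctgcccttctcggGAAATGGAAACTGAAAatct

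In dysplasia, most of the interferon-induced genes tested were lower than in the unaltered tissue of transgenic mice, and none was higher. The mean signal in dysplasia was 0.369 of that in transgenic tissue for Ifitm1, 0.349 for Rsad2 and 0.39 for Gbp3, while Irgm1, at 1.03, was the gene with a positive change. Compared with transgenic tissue, 23 of the 33 genes tested were lower at an adjusted p under 0.05 and 0 were higher (limma, Benjamini-Hochberg over all probe sets tested). Over all genes tested 21.0% were lower and 18.6% were higher by the same rule. The log2 change, on the scale of log2(signal + 50), had a median of -0.66 over the 33 genes, beside -0.01 over all genes. For 20 of them every dysplasia array was below every transgenic array, as it was for 16.6% of all genes. Without dysplasia 4 and transgenic 2, 21 were lower and 0 higher, with a median of -0.67. Leaving transgenic 2 out alone gave 21, and leaving dysplasia 4 out alone gave 23. With the ratio of actin as a covariate 23 were lower, with Xist as a covariate 22, and with the array number as a block 26. The calls of Irf9 (adjusted p = 0.0556) and Trim30a (adjusted p = 0.0658, limma) ended with Xist in the fit.

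Against non-transgenic tissue the count was 28 lower and 0 higher of 33, where 26.0% of all genes were lower and 24.7% were higher. The median log2 change was -0.83, beside -0.01 over all genes, and all 33 genes had a negative change. In 23 genes all dysplasia arrays lay below all non-transgenic arrays, as in 20.5% of all genes. The count was 26 without dysplasia 4 and 25 with Xist as a covariate, where the calls of Ddx58 (adjusted p = 0.108), Oas1a (adjusted p = 0.0654) and Tap1 (adjusted p = 0.112, limma) ended. A ratio of group means of at most 0.5 was reached by 5 of the 33 genes against transgenic and by 14 against non-transgenic tissue. How many of all genes tested reach this ratio was not counted. Both comparisons use the same 5 dysplasia arrays and are therefore not independent of each other.

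**Figure D1:**
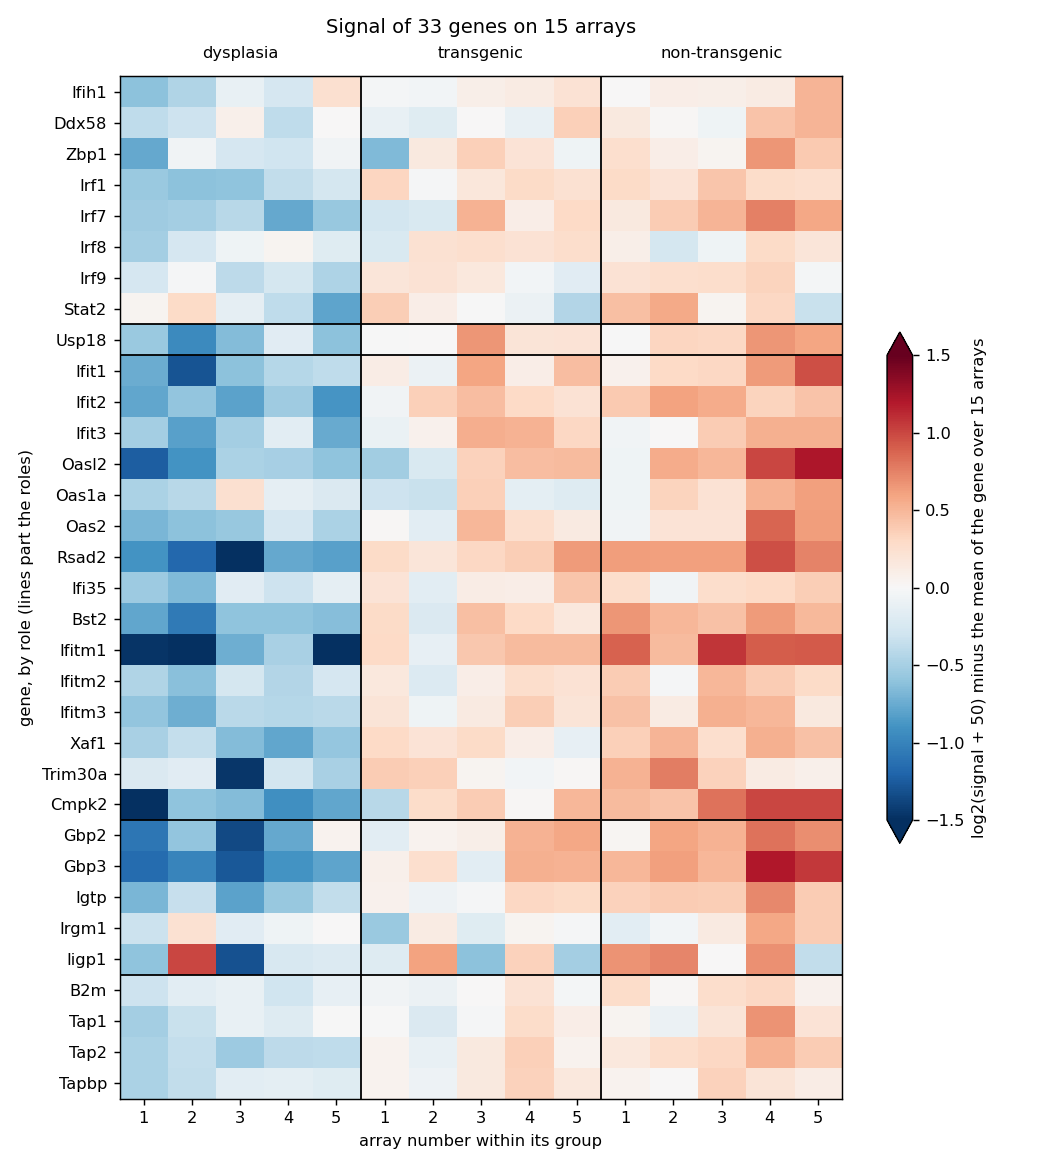
Heat map of log2(signal + 50) of the 33 genes tested (down, by role) on the 15 arrays (across, 5 per group), as the difference from the mean of the gene over all arrays, with colours ending at 1.5 in both directions. The dysplasia columns are blue for most effectors and GTPases, while Irgm1, Oas1a and Iigp1 show no such block.

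**Figure D2:**
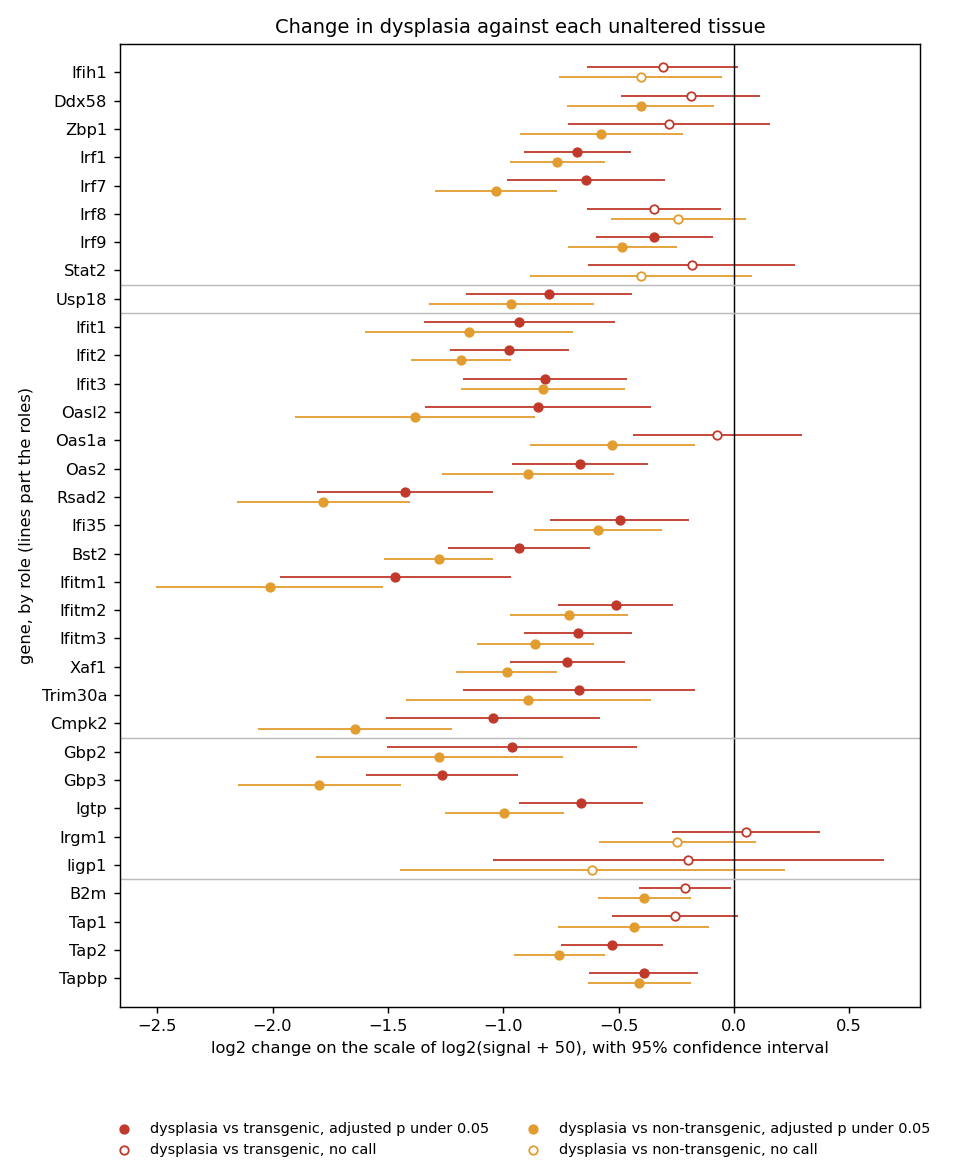
Log2 change of each gene tested in dysplasia against transgenic (red) and non-transgenic tissue (orange), with 95% confidence intervals from limma (n = 5 arrays a group). Filled points have an adjusted p under 0.05, 23 in the first comparison and 28 in the second, and all filled points lie left of 0.

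Of the sensors and transcription factors, 3 of 8 were lower in dysplasia than in transgenic tissue (Irf1, Irf7 and Irf9) and 5 of 8 were lower than in non-transgenic tissue, with Ddx58 and Zbp1 added. Irf1 encodes a factor induced by interferon gamma that acts on MHC I and GTPase genes. Its signals were 2151, 2068, 2092, 2453 and 2660.4 in dysplasia, 4018, 3143, 3595, 3901 and 3757 in transgenic and 3897, 3693, 4263, 3863 and 3801 in non-transgenic tissue. No dysplasia array reached the lowest array of either other group, while the transgenic and non-transgenic arrays overlapped. The log2 change was -0.68 (standard error 0.11, adjusted p = 0.000462, limma) against transgenic and -0.77 (standard error 0.09, adjusted p = 5.79e-05) against non-transgenic tissue.

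Irf7 is the factor that amplifies type I interferon production and is itself induced by interferon. It gave 319.6, 324, 351, 263 and 310.1 in dysplasia, 391, 404, 718, 520.2 and 606 in transgenic and 541, 644, 708, 847 and 746 in non-transgenic tissue. The dysplasia arrays again lay below all others, and the transgenic arrays spread the most, with numbers 1 and 2 close to dysplasia. Its log2 change was -0.64 (adjusted p = 0.00776) and -1.03 (adjusted p = 3.8e-05, limma). Irf9, the DNA-binding part of the complex that type I interferon activates, gave 894, 1061, 805, 888 and 761 in dysplasia, 1217, 1257, 1201, 1042 and 945 in transgenic and 1254, 1284, 1300.4, 1363 and 1051 in non-transgenic tissue. Here dysplasia 2 lay above the lowest transgenic arrays, and the change of -0.34 against transgenic tissue (adjusted p = 0.0385, limma) did not pass the threshold under 11 of 23 alternative settings, with adjusted p up to 0.126. Against non-transgenic tissue it was -0.48 (adjusted p = 0.00352).

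Ddx58 encodes the RNA sensor RIG-I. The signals were 596, 631, 841, 597 and 797 in dysplasia, 729, 691, 799.6, 730.3 and 1026 in transgenic and 879.7, 805, 754, 1080.1 and 1154 in non-transgenic tissue, so that dysplasia overlapped both. The log2 change was -0.19 (adjusted p = 0.34) and -0.40 (adjusted p = 0.0421, limma), and the second lost its call under 10 of the alternatives. A dimmer probe set of Ddx58 was lower in both, by -0.41 (adjusted p = 0.00229) and -0.71 (adjusted p = 6.5e-05). Zbp1, a sensor of Z-form nucleic acid, gave 79.3, 161, 135, 128 and 162 in dysplasia, 88.7, 193, 232, 203 and 161 in transgenic and 212, 186, 176, 298 and 238 in non-transgenic tissue. Dysplasia and transgenic arrays overlapped (log2 change -0.28, adjusted p = 0.327), while all dysplasia arrays were below the non-transgenic ones (-0.58, adjusted p = 0.013, limma).

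The remaining genes of this group, Ifih1, Irf8 and Stat2, passed the threshold in neither comparison. Ifih1, the RNA sensor MDA5, ranged from 1413 to 2605 in dysplasia, 2131 to 2568 in transgenic and 2210.5 to 3147 in non-transgenic tissue, with log2 changes of -0.31 and -0.40. With the array number as a block its change against transgenic tissue had an adjusted p of 0.0283, and that of Irf8, a factor of the macrophage and dendritic lineages, an adjusted p of 0.00576 (limma). Irf8 ranged from 1004 to 1494 in dysplasia, 1234 to 1758 in transgenic and 1202 to 1779 in non-transgenic tissue (log2 changes -0.34 and -0.24). A dimmer probe set of Irf8 changed by -0.08 (adjusted p = 0.844) and -0.23 (adjusted p = 0.488, limma). Stat2, the partner of Irf9, was dim, with 65.6 to 193 in dysplasia, 96.7 to 207 in transgenic and 108 to 246 in non-transgenic tissue (log2 changes -0.18 and -0.40). Its lowest value in each group was that of array number 5, which also had the lowest ratio of actin in each group, 25.1% on dysplasia 5, 12.5% on transgenic 5 and 14.1% on non-transgenic 5. The part of RNA integrity in the values of Stat2 was not tested beyond the fit with that ratio as a covariate, where its change against non-transgenic tissue was -0.57 (adjusted p = 0.00496, limma).

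Among feedback regulators, Usp18, which removes ISG15 from proteins and restrains the type I receptor, was lower in dysplasia. It gave 411, 298, 381, 550.3 and 393 in dysplasia, 625, 631, 1023, 723 and 729 in transgenic and 624, 793, 789, 1023 and 966 in non-transgenic tissue. The dysplasia arrays did not overlap either group (log2 change -0.80, adjusted p = 0.00283 and -0.96, adjusted p = 0.000555, limma). Socs1, an inhibitor of JAK kinases, stayed between 33.1 and 90.3 on all arrays, under the limit, and was not tested.

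Of 15 antiviral effectors tested, 14 were lower in dysplasia than in transgenic tissue and all 15 were lower than in non-transgenic tissue, with median log2 changes of -0.82 and -0.99. Oas1a was the exception against transgenic tissue. Ifitm1, a membrane protein that hinders the entry of viruses, had the largest change of the 33 genes in both comparisons. It gave 1046, 1000.0, 1789, 2125 and 974 in dysplasia, 3699, 2759, 3975, 4183 and 4195 in transgenic and 5587, 4198, 6331, 5679 and 5718 in non-transgenic tissue. The groups stood in 3 separate ranges, although the highest transgenic and the lowest non-transgenic array all but met. The log2 change was -1.47 (standard error 0.23, adjusted p = 0.000464) against transgenic and -2.01 (standard error 0.22, adjusted p = 2.74e-05, limma) against non-transgenic tissue, with ratios of means of 0.369 and 0.252.

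Rsad2 encodes viperin, an enzyme that makes a chain-terminating nucleotide. Its signals were 398, 320.4, 209.9, 443 and 426 in dysplasia, 972, 897, 987, 1034 and 1258 in transgenic and 1239, 1228, 1231, 1587 and 1347 in non-transgenic tissue. The highest dysplasia array was far below the lowest array of each other group (log2 change -1.43, adjusted p = 9.11e-05 and -1.78, adjusted p = 9.51e-06, limma). Cmpk2, a nucleotide kinase whose gene neighbours Rsad2 in the genome, gave 144, 319.9, 308, 247 and 278 in dysplasia, 370.1, 631, 684, 518 and 742 in transgenic and 732, 706, 936, 1077 and 1079 in non-transgenic tissue. It did not overlap either group, with log2 changes of -1.05 (adjusted p = 0.00266) and -1.64 (adjusted p = 3.91e-05, limma).

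Bst2 encodes tetherin, which holds budding virus at the cell surface. It gave 819, 665, 930.3, 935 and 905 in dysplasia, 1765, 1234, 1996, 1785 and 1613 in transgenic and 2307, 2052, 1974, 2268 and 2033 in non-transgenic tissue. Transgenic 2 was the lowest of its group, yet above all dysplasia arrays. The log2 change was -0.93 (adjusted p = 0.000372) and -1.28 (adjusted p = 3.54e-06, limma). Ifit2, an RNA-binding protein that blocks translation of viral RNA, gave 434, 505, 426, 527 and 400.3 in dysplasia, 751, 1019, 1097, 971 and 918 in transgenic and 1039.9, 1218, 1174, 997 and 1073 in non-transgenic tissue. No array of dysplasia came near the other groups, and the changes were -0.97 (adjusted p = 8.59e-05) and -1.18 (adjusted p = 3.66e-06, limma). Xaf1, a partner of inhibitors of apoptosis, gave 714, 787, 633, 577 and 669.7 in dysplasia, 1269.5, 1189.8, 1256, 1096 and 933 in transgenic and 1319.8, 1473, 1222, 1500.0 and 1408 in non-transgenic tissue. These ranges did not touch either (-0.72, adjusted p = 0.0005 and -0.99, adjusted p = 1.43e-05, limma).

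Ifit1 and Ifit3, of the same family and the same gene cluster as Ifit2, had log2 changes of -0.93 and -0.82 against transgenic tissue, and -1.15 and -0.83 against non-transgenic tissue. The 2′-5′ oligoadenylate synthetase genes, which arm an RNase against viral RNA, did not all pass the threshold. Oas2 changed by -0.67 and -0.89 and the related Oasl2 by -0.85 and -1.38, in each case past the threshold. Oas1a ranged from 435 to 745 in dysplasia, 483 to 811 in transgenic and 595 to 984 in non-transgenic tissue, with a change of -0.07 (95% interval -0.44 to 0.29, adjusted p = 0.795) against transgenic and -0.53 (adjusted p = 0.0214, limma) against non-transgenic tissue. That call against non-transgenic tissue was lost under 4 of the alternatives. Whether the change of Oas1a differs from those of Oas2 and Oasl2 was not tested.

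Ifitm2 and Ifitm3, the neighbours of Ifitm1, were lower by smaller steps, -0.51 and -0.68 against transgenic and -0.71 and -0.86 against non-transgenic tissue, at signals of 7929.9 to 12505 in dysplasia, 10685 to 21411 in transgenic and 12122 to 24127 in non-transgenic tissue. Ifi35 changed by -0.49 and -0.59, and all 3 of its probe sets were lower in both comparisons. Trim30a, a restraint on Toll-like receptor signalling, changed by -0.67 (adjusted p = 0.0424) and -0.89 (adjusted p = 0.0113, limma). Its lowest dysplasia array was number 3 at 344, against 725 to 915 on the other 4, and the call against transgenic tissue was lost under 10 alternatives. The change also had no call on its second probe set (-0.50, adjusted p = 0.082). Oas3, Mx1 and Mx2 stayed at 11.3 to 157, 28.9 to 182 and 5.20 to 56.3 over the 15 arrays and were not tested. Mx1 and Mx2 are known to be defective in most inbred mouse strains.

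**Figure D3:**
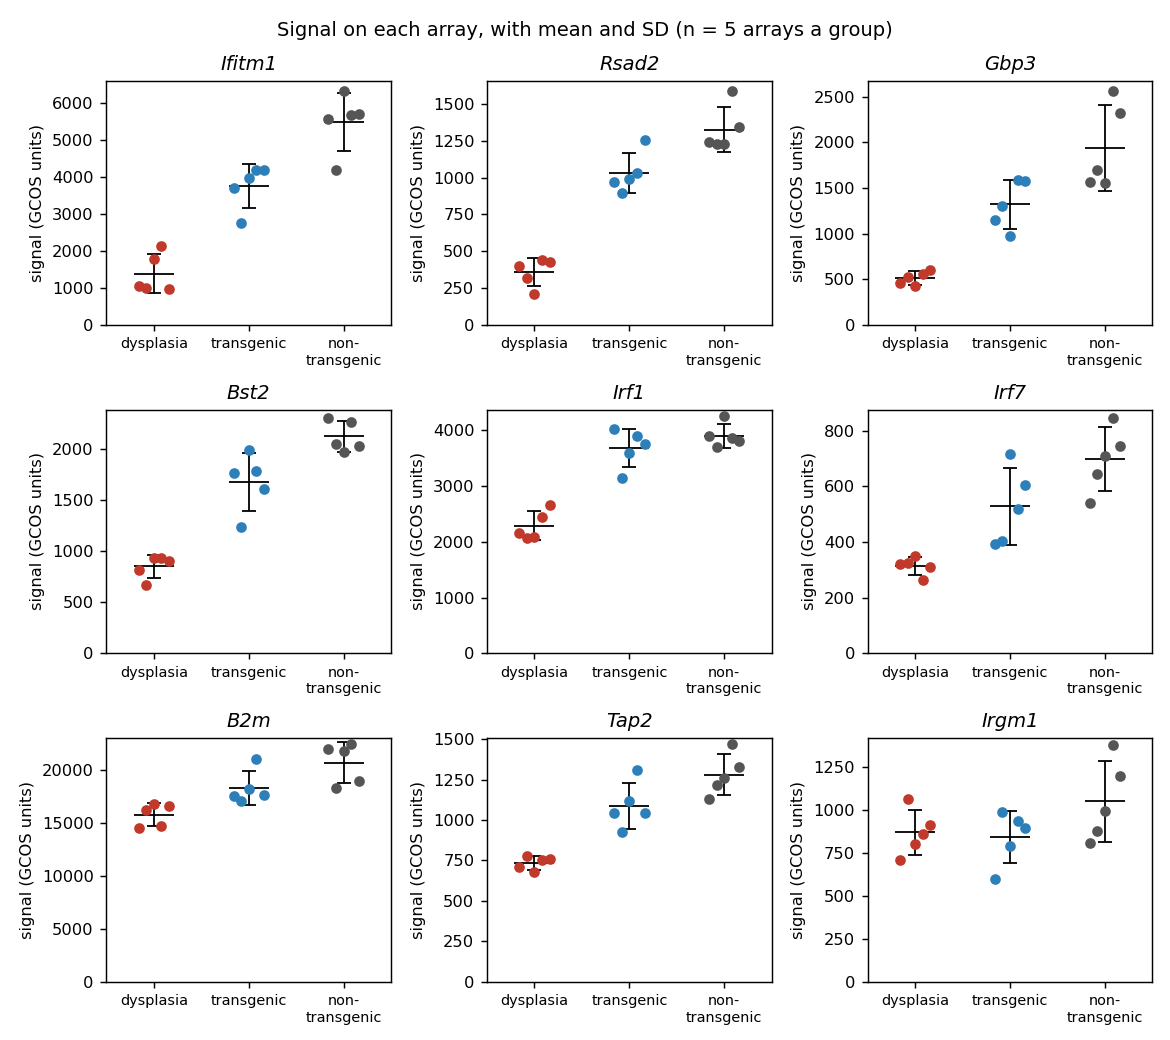
Signal (linear scale from 0) of 9 genes on each array of dysplasia, transgenic and non-transgenic tissue, with mean and SD (n = 5 arrays a group). Ifitm1, Rsad2 and Gbp3 show dysplasia far below both other groups, B2m shows a small step, and Irgm1 overlaps between dysplasia (711 to 1065) and transgenic tissue (599 to 986).

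Interferon-inducible GTPases, which attack the vacuoles of intracellular pathogens, split into 3 genes that were lower in both comparisons (Gbp2, Gbp3 and Igtp) and 2 that passed the threshold in neither (Irgm1 and Iigp1). Gbp3, a guanylate-binding protein, gave 462, 524, 420.5, 558 and 605 in dysplasia, 1152, 1303, 969.6, 1589 and 1580.4 in transgenic and 1559, 1693, 1556, 2564 and 2316 in non-transgenic tissue. Every dysplasia array was below every other array, and non-transgenic 4 and 5 were the highest. The log2 change of -1.27 (standard error 0.15, adjusted p = 7.65e-05, limma) had the smallest p of the 33 genes against transgenic tissue, and against non-transgenic tissue the change was -1.80 (adjusted p = 5.83e-06). Gbp2, of the same cluster, gave 1124, 1610.5, 927, 1419.6 and 2539.6 in dysplasia, 2178, 2544, 2602, 3520.3 and 3672 in transgenic and 2505, 3702, 3523, 4323 and 3995 in non-transgenic tissue. Dysplasia 5 reached into both other groups, unlike the 4 others (-0.96, adjusted p = 0.0107 and -1.28, adjusted p = 0.00134, limma).

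Igtp, also known as Irgm3, gave 1086, 1392, 1003, 1182 and 1370.3 in dysplasia, 1861, 1686, 1753, 2216 and 2175 in transgenic and 2283, 2341, 2322, 2969 and 2329 in non-transgenic tissue, 3 ranges with no overlap. Its change was -0.66 (adjusted p = 0.00146) and -0.995 (adjusted p = 4.22e-05, limma). Irgm1, a regulator of the same family, changed by 0.05 (95% interval -0.27 to 0.37, adjusted p = 0.836) against transgenic and by -0.25 (adjusted p = 0.226, limma) against non-transgenic tissue. Iigp1 had the widest spread of all, with 622 to 3301 in dysplasia, 1040.2 to 2483 in transgenic and 1245 to 2711 in non-transgenic tissue, and its interval against transgenic tissue ran from -1.04 to 0.65. A second probe set of Iigp1 was lower than in non-transgenic tissue (-1.08, adjusted p = 0.0175, limma).

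In class I presentation, Tap2 and Tapbp were lower than in transgenic tissue, and all 4 genes were lower than in non-transgenic tissue, by smaller steps than the effectors (median log2 changes -0.32 and -0.42). Tap2, a subunit of the transporter that brings peptides into the endoplasmic reticulum, gave 709.5, 776, 676, 755 and 759 in dysplasia, 1041, 926, 1117, 1307 and 1044 in transgenic and 1127, 1213, 1262, 1467 and 1329 in non-transgenic tissue. The dysplasia arrays were close together and below all others (-0.53, adjusted p = 0.00182 and -0.76, adjusted p = 4.37e-05, limma). Its partner Tap1 gave 743, 843, 994, 940.1 and 1077 in dysplasia, 1069, 918, 1063, 1317 and 1163 in transgenic and 1109, 1011, 1242, 1746 and 1249.6 in non-transgenic tissue. Those ranges overlapped, with log2 changes of -0.26 (adjusted p = 0.143) and -0.43 (adjusted p = 0.0348, limma), and with the array number as a block the first had an adjusted p of 0.0463. Without the block, the call against non-transgenic tissue was lost under 9 alternatives.

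Tapbp encodes tapasin, which holds MHC I at the transporter. It gave 5117, 5549, 6419.9, 6458 and 6289.9 in dysplasia, 7403, 6763, 7947, 9122 and 7970.1 in transgenic and 7409, 7214, 9119, 8217 and 7733 in non-transgenic tissue, with no overlap of dysplasia with the others (-0.39, adjusted p = 0.0157 and -0.41, adjusted p = 0.00658, limma). A dimmer probe set of Tapbp had no call against transgenic tissue (-0.45, adjusted p = 0.18). B2m, the light chain that every MHC I molecule needs at the cell surface, gave 14571, 16205, 16821, 14729.5 and 16656 in dysplasia, 17529.9, 17082, 18207, 21089.8 and 17688 in transgenic and 22009, 18329, 21831, 22491 and 18988 in non-transgenic tissue. Although no dysplasia array reached the other groups, the change of -0.21 (95% interval -0.41 to -0.01) against transgenic tissue did not pass the threshold (adjusted p = 0.1). Against non-transgenic tissue it was -0.39 (adjusted p = 0.00522, limma), and the second probe set of B2m had no call in either comparison (-0.15 and -0.26).

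Transgenic tissue itself did not differ from non-transgenic tissue at the threshold for any of these genes. By limma 0 of 33 were lower and 0 higher, where 0.121% of all genes tested were lower and 1.59% were higher by the same rule. At an unadjusted p under 0.05 there were 9 of these genes, all 9 lower. The share of all genes at that unadjusted threshold was not counted. The log2 change was negative for 32 of the 33 genes (median -0.22, beside -0.01 over all genes), and Irf8 was the exception. Ifitm1 (-0.55, adjusted p = 0.113) and Igtp (-0.33, adjusted p = 0.222) were the 2 genes whose transgenic arrays all lay below the non-transgenic ones, against 1.34% of all genes. With the array number as a block Ifitm1 (adjusted p = 0.0251) and Gbp3 (-0.53, adjusted p = 0.0335, limma) passed the threshold. In 31 of the 33 genes the mean was lowest in dysplasia, intermediate in transgenic and highest in non-transgenic tissue, as in 33.3% of all genes tested.

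Arrays of the same number were taken as pairs of dysplasia and transgenic tissue, although the labels do not say that a number marks a mouse. In number 4 the sex-linked signal differed, with Xist at 9674 on dysplasia 4 and 85.0 on transgenic 4. The difference of dysplasia minus transgenic was negative in all 5 numbers for 26 of the 33 genes and in 4 numbers for 5 genes. Counts and medians by number were made for these 33 genes only, so no share over all genes stands beside them. Iigp1 was lower in 3 numbers and Irgm1 in 1. The median log2 difference over the 33 genes was -0.60 for number 1, -0.49 for number 2, -0.77 for number 3, -0.59 for number 4 and -0.50 for number 5. Numbers 2 and 4 hold the arrays in doubt. In number 2, which had the smallest median difference, 30 of the 33 genes were lower in dysplasia, and in number 4 it was 32.

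Genes were lower both with and without the letters GAAANNGAAA in their windows. Of the 16 genes with a match and a test, 10 were lower in dysplasia than in transgenic tissue (median log2 change -0.67), and of the 12 genes without a match 10 were lower (median -0.66). Ifitm1, Ifit2, Cmpk2, Oasl2 and Xaf1 were lower with no match in their windows, and Irgm1, Oas1a and B2m, printed above, carry the letters and had no call. A match describes letters and no binding.

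Other genes of the pathway changed in part of the lists only. Over all genes tested, 21.0% were lower and 18.6% higher against transgenic tissue. Against non-transgenic tissue the shares were 26.0% and 24.7%. Of 6 interferon genes 4 had a probe set of their own and 0 passed the signal limit, so that no interferon gene was tested. Among 9 receptor and kinase genes, 1 was higher and 1 lower in both comparisons. Il10rb, a chain of the interferon lambda and interleukin 10 receptors, rose by 0.72 (adjusted p = 0.000348) and 0.85 (adjusted p = 3.39e-05), and Ifngr1, the binding chain for interferon gamma, changed by -0.59 (adjusted p = 0.00107) and -0.71 (adjusted p = 0.000174, limma). Ifnlr1 (0.29 and 0.32) and Ifngr2 (0.32 and 0.34) had no call.

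Of 7 further STAT and IRF factors, 2 were lower in each comparison and 0 were higher. The lower ones made up 28.6%, beside 21.0% and 26.0% of all genes. Stat5b changed by -0.78 and -0.91, past the threshold in both, Stat5a passed it against transgenic tissue (-0.35) and Irf2 against non-transgenic tissue (-0.33), while Stat3 had no call (0.01 and 0.30). Among 10 further sensors and adaptors, 2 were higher and 2 lower in each comparison. That is 20% each way, close to the shares over all genes or below them. Sting1, the adaptor for cytosolic DNA, rose by 0.68 (adjusted p = 0.0039) and 1.25 (adjusted p = 5.33e-05) in dysplasia, and was also higher in transgenic than in non-transgenic tissue (0.57, adjusted p = 0.0309, limma). Tlr3, the endosomal sensor of double-stranded RNA, changed by -0.39 and -0.68 and Dhx58 by -0.55 and -0.55, each past the threshold. Myd88 passed the threshold against non-transgenic tissue (0.34), and Ticam1, named after its value was seen, against transgenic tissue (0.37).

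A further list of 32 interferon-stimulated genes had 13 lower and 0 higher against transgenic, and 21 lower and 2 higher against non-transgenic tissue, with medians of -0.32 and -0.52. Gbp7 changed by -1.61 and -2.06, Slfn5 by -1.34 and -1.82, Sp100 by -0.85 and -1.12 and Tor3a by -0.54 and -0.72, all past the threshold. Ifi30, a lysosomal thiol reductase, and Cxcl9, a chemokine induced by interferon gamma, were the 2 higher ones against non-transgenic tissue (0.93 and 1.32), both named after their values were seen. Of 12 further class I genes, 5 were lower and 1 higher against transgenic and 4 lower and 1 higher against non-transgenic tissue. The lower ones made up 41.7% and 33.3%, beside 21.0% and 26.0% of all genes. The immunoproteasome subunits Psmb9 (-0.59 and -0.80) and Psmb10 (-0.52 and -0.68), the class I transactivator Nlrc5 (-0.75 and -1.15) and the non-classical heavy chain H2-M3 (-0.44 and -0.72) passed the threshold in both, and Erap1, a peptidase that trims the peptides, against transgenic tissue (-0.27). Psme1, a proteasome activator, was the higher one (0.42 and 0.48), and the classical heavy chains H2-K1 (0.06 and 0.09) and H2-D1 (-0.09 and -0.07) had no call. Erap1, Psme1 and the heavy chains were also picked after their values were seen, and probe sets of the heavy chains may take up RNA of their near-identical relatives. Among 6 feedback genes 0 passed against transgenic tissue (limma), where Cish (-0.35, adjusted p = 0.0615) had an adjusted p of 0.00845 with the array number as a block. Against non-transgenic tissue Cish (-0.57) and Ptpn6 (-0.51) were lower, and Socs3 (0.66) and Pias3 (-0.36) had no call.

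**Figure D4:**
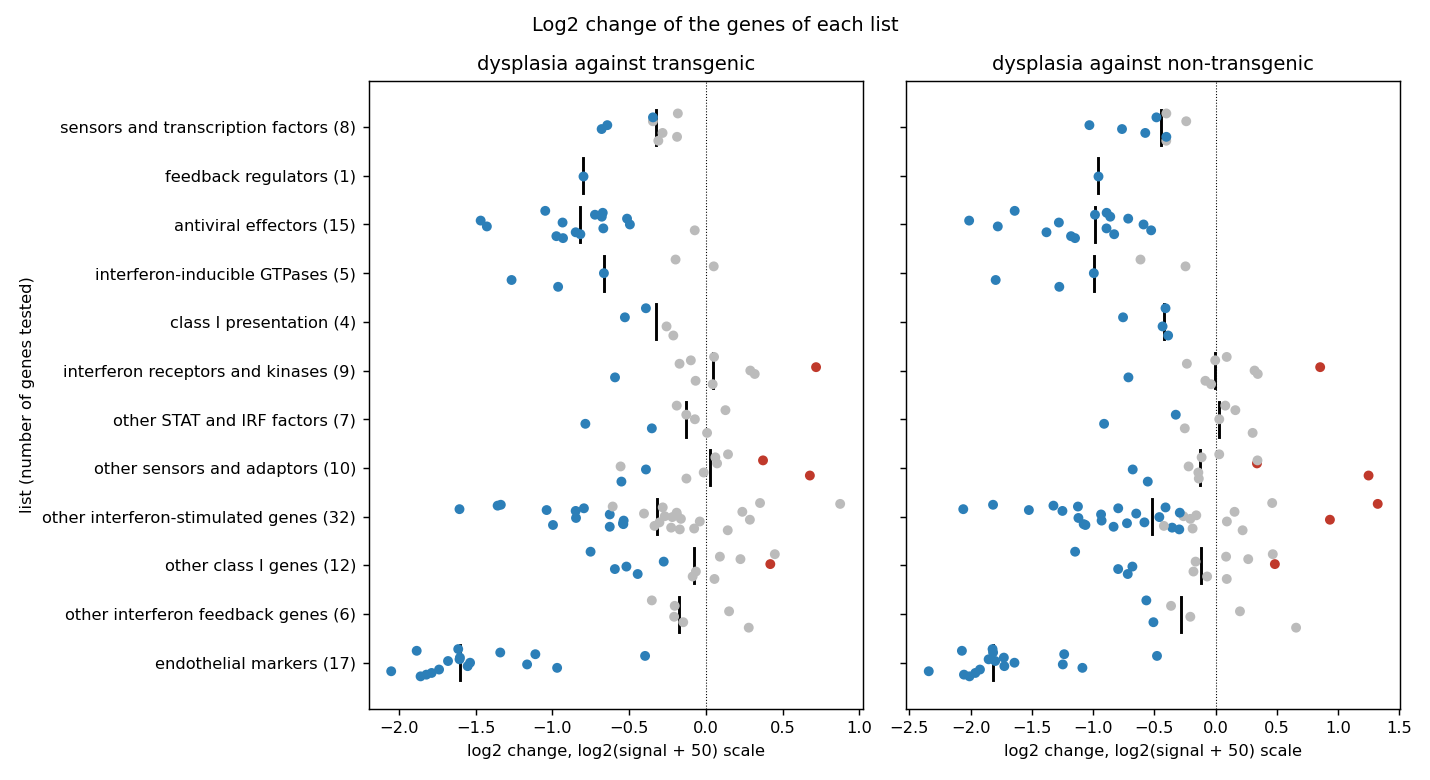
Log2 change of each gene tested, by list, in dysplasia against transgenic (left) and non-transgenic tissue (right), with the median of the list as a black bar, lower genes in blue, higher ones in red and those without a call in grey. The 5 upper lists are the 33 genes described here, and the median of the 17 endothelial markers at the bottom lies further to the left than the median of any of them.

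Markers of part of the other cell types were lower in dysplasia as well, while those of others split or had few calls. Over all genes tested, 21.0% were lower against transgenic and 26.0% against non-transgenic tissue. All 17 endothelial markers were lower in dysplasia in both comparisons, with median log2 changes of -1.60 and -1.82, and their summed signal was 27273 to 39781 in dysplasia, 75154 to 101830 in transgenic and 87739 to 110548 in non-transgenic tissue. The 4 tested markers of natural killer cells and the 4 of neutrophils were lower in both as well, with summed signals over the measured markers of 921 to 1553 and 1414 to 2368 in dysplasia, 1997 to 3181 and 4176 to 9378 in transgenic and 2742 to 4319 and 6224 to 13719 in non-transgenic tissue. Of 5 B cell markers 4 were lower than in transgenic and 5 than in non-transgenic tissue, and the sums were 1631 to 2922 in dysplasia, 3050.3 to 4807 in transgenic and 3586 to 5027 in non-transgenic tissue. Macrophage markers split, with 4 higher (C1qa, C1qb, C1qc and Cd14) and 9 lower of 15 against transgenic and 6 higher and 3 lower (Marco, Csf1r and Mertk) against non-transgenic tissue, and sums of 48385 to 55510 in dysplasia, 56171 to 65459 in transgenic and 39985 to 55589 in non-transgenic tissue.

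Of 6 T cell markers Cd2 was lower in both comparisons and Cd3d against non-transgenic tissue, of 6 dendritic markers Zbtb46 and Ccr7 were lower and Itgae higher in both, and of 9 fibroblast markers Pdgfra, Tcf21 and Mfap4 were lower in both. The markers named here were picked after their values were seen. The summed signal of T cell markers was 1217 to 1897 in dysplasia, 1739 to 2273 in transgenic and 1567 to 2527 in non-transgenic tissue, and that of dendritic markers 2654 to 3566 in dysplasia, 2718 to 3348 in transgenic and 2246 to 2767 in non-transgenic tissue. Fibroblast markers summed to 27449 to 35844 in dysplasia, 44314 to 52616 in transgenic and 48039 to 53600.4 in non-transgenic tissue. The 7 tested markers of alveolar type 2 cells, the cells in which the transgene is driven, had 0 calls against transgenic and 2 higher (Abca3 and Napsa) against non-transgenic tissue (limma), with sums of 113405 to 192105 in dysplasia, 105875 to 177498 in transgenic and 97228 to 129520 in non-transgenic tissue. No marker was at 0 in any group, and Xcr1, Siglech, Cd4, Ncr1, Prf1, Pax5, Cxcr2 and Nkx2-1 stayed under the signal limit. The part of these cell types in the lower signal of the interferon genes was not tested.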

How the data were processed

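The authors computed 1 intensity (signal) per probe set with GCOS, its version not given in the sources used here, scaled each array to a target of 500, and deposited the signals on a linear scale. After trimming 2% from both ends the mean was 500.0 on all arrays. Leaving out 64 control probe sets, 34945 of 45037 probe sets carried 1 gene symbol. With 5 arrays a group, their number limits the precision.

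Signals plus 50 were taken to log2 and compared unpaired in limma 3.58.1 (R 4.3.3), over the 21658 probe sets with a mean signal above 100 and the 10 arrays of each comparison, with p-values adjusted over all of them. For each gene the brightest probe set that names it alone was taken. The method was tested on simulated data with independent noise on each array, which leaves out the correlation of same-numbered arrays given below. The genes and lists were chosen with earlier results of these data known. All 39 genes are named. Values on every array are given for genes past the threshold, at most 6 per role with the smallest p, and for B2m, Irf1 and Irf7. From other lists up to 4 genes with the smallest p are named. Sequences for print were chosen after the values were seen.

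Dysplastic and unaltered samples share mice, and deviations of same-numbered arrays from their group means correlated in every pair (lowest 0.219, mean 0.612). The numbers were therefore taken as pairs, and a fit with the number as a block was run. The mean for other numbers was -0.150. It is no separate evidence, because deviations cancel out within a group, which ties this mean to the same-number mean. Transgenic and non-transgenic arrays, of different mice, had a same-number mean of 0.452 (lowest 0.135, other numbers -0.108). For dysplasia and non-transgenic arrays it was 0.405 (lowest -0.00366, other numbers -0.0995), so that a number may mark something other than a mouse. Alternatives changed the offset, scaling, signal limit, probe set, covariates and arrays.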

Additional observations from a re-analysis of the deposited data

Results flagged for a closer look

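In 99 groups of 5 arrays, 6 genes had a single array far from the other 4 by Dixon's test, close to the 1 in 20 that chance gives. Trim30a was low on dysplasia 3, at 344 against 725 to 915 on the other dysplasia arrays. Irf8 was low on transgenic 1, at 1234 against 1695 to 1758. Oas1a was high on transgenic 3, at 811 against 483 to 556. In non-transgenic tissue, Ifih1 was high on array 5 (3147 against 2210.5 to 2403), Ifi35 was low on array 2 (7528 against 9377 to 10072) and Igtp was high on array 4 (2969 against 2283 to 2341). Without transgenic 1 the change of Irf8 against transgenic tissue was -0.44 (adjusted p = 0.0144, limma), against no call with it. The dimmer probe set of Irf8 had no call with all arrays (-0.08, adjusted p = 0.844, limma).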

How the results depend on the processing

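Each comparison was repeated under 23 alternatives, and 0 results reversed and 0 of these genes were higher in dysplasia under any of them. In comparisons with non-transgenic tissue, leaving out both arrays in doubt takes out only 1 array and so repeats another alternative. The counts of lost calls given for Ddx58 and Tap1 include that fit double. Leaving out 1 array at a time gave 21 to 23 lower genes (median log2 change -0.71 to -0.58) against transgenic, 25 to 29 (-0.88 to -0.75) against non-transgenic tissue, and 0 (-0.27 to -0.19) between transgenic and non-transgenic tissue. Other settings gave 21 to 26 and 25 to 30 lower genes. With no signal limit the median against transgenic tissue was -0.53, as 4 dim genes enter. Between transgenic and non-transgenic tissue 2 genes were lower with the replicate block and 1, Ifitm1, with the actin ratio as a covariate. Pairing by array number also gave Stat2 (adjusted p = 0.0101) and Ifih1 (adjusted p = 0.00948) against non-transgenic tissue, where same-numbered arrays did not all correlate, and changed no other call of the 33 genes than those given in the text.

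The call was kept under all alternatives by 20 of the 23 genes lower than in transgenic tissue (all but Irf9, Trim30a and Tapbp) and by 24 of the 28 lower than in non-transgenic tissue (all but B2m, Ddx58, Oas1a and Tap1). Taking the most variable probe set ended the call of Tapbp (adjusted p = 0.18) and of B2m (adjusted p = 0.165, limma). Leaving out both arrays in doubt was chosen after the data were seen. Dim probe sets near a signal of 100 have changes that are understated by the offset.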
